A study of Mus musculus with 6 samples.

Results

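The genes of V(D)J recombination were compared between mouse pro-B cells given EBF and the same kind of cells given an empty control virus. They were the recombinase genes Rag1 and Rag2, the terminal transferase gene Dntt (TdT) and 7 genes of DNA end joining, namely Polm, Xrcc6, Xrcc5, Prkdc, Dclre1c, Lig4 and Xrcc4. Members were taken by exact gene symbol in the platform's gene table, with each probe set (a group of probes read as 1 value) kept separate. That gave 13 probe sets for 9 of the 10 genes, out of 45037 probe sets and 18193 genes in all. Dclre1c, the Artemis nuclease gene that opens hairpin ends, had no probe set under that symbol alone and was not analysed here.

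Every array came from cells that lacked Pax5 (Pax5-/-), a factor required for B lineage commitment, so both groups carry that deletion. The EBF group received the Mig-EBF retrovirus and the control group the MigR1 retrovirus, with 3 Affymetrix arrays each, named EBF 1 to 3 and control 1 to 3 after the labels. Both were grown on ST2 stromal cells with IL-7 at 5 ng/ml, and GFP-positive cells were sorted 2 days after infection. Ebf1 itself did not separate the groups. Its brightest probe set, 1416302_at, read 4772, 4756 and 4082 in EBF 1 to 3 and 4204, 4276 and 4029 in control 1 to 3 (log2 0.12, limma adjusted p = 0.469, blocked 0.377). No source used here says whether this probe set can read the viral transcript, and it therefore does not test the labels. The labels give neither strain nor age, and they do not say whether replicates were separate cultures, and p-values therefore cover only the spread among these arrays, which could be technical.

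V(D)J recombination assembles the variable part of immunoglobulin and T cell receptor genes. The RAG1 and RAG2 proteins cut beside the gene segments, TdT adds bases without a template to the cut ends, and the end joining proteins hold, open, fill and ligate them. RAG and TdT are made in early lymphocytes, whereas the end joining proteins serve break repair in most cells. EBF is a transcription factor on which the early steps of B cell formation depend.

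Of these genes, Dntt was the one to pass the test. Of the 13 probe sets, 2 fell in the EBF arrays and both belonged to Dntt, the larger decrease being 1.82-fold. By limma 0 rose after adjustment over all 45037 probe sets, while 4 had an unadjusted p below 0.05 in the higher direction (Rag1, Rag2, Xrcc5 and Lig4) and 3 in the lower (Xrcc6 and the same 2 of Dntt). Among all probe sets 0.531% were called lower and 0.344% higher, and unadjusted p-values below 0.05 were found for 6.19% in the lower and 12.8% in the higher direction. With a block for the replicate number, which allows for arrays of 1 number being alike, Lig4 was called higher and the same 2 probe sets of Dntt lower, where 4.88% of all probe sets were higher and 2.4% lower. The median log2 difference, EBF minus control, was -0.03 over the 13 probe sets and 0.02 over all probe sets. Differences are of log2(intensity + 32), which understates the change of dim genes. Groups are called separate below where every EBF array was above, or every EBF array below, every control array. That held for 3 of the 13 in the higher direction and 4 in the lower, against 15.5% and 7.67% of all probe sets.

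**Figure D1:**
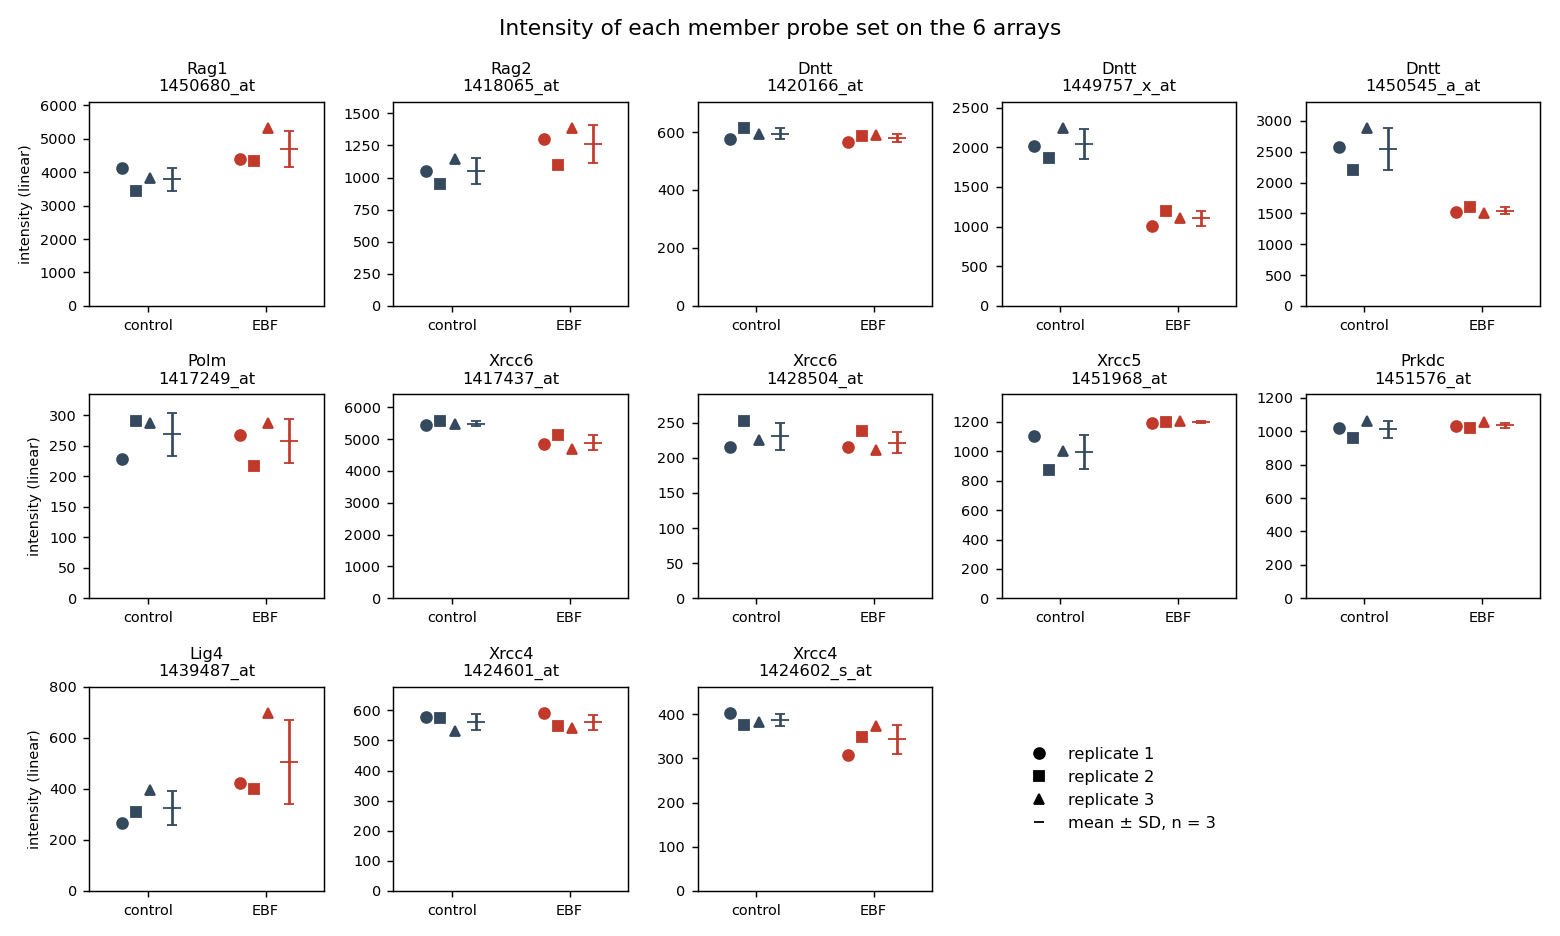
Deposited intensity (linear scale, each axis from 0) of the 13 probe sets on each array, with control arrays in dark blue and EBF arrays in red. Symbols give the replicate number and bars the mean ± SD of 3 arrays. Of the 3 Dntt panels, 2 show all EBF arrays below all controls, and the remaining one shows the groups together near 590.

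The promoters of Dntt, Rag1, Rag2 and Lig4, are shown because Dntt and Lig4 had the largest differences of either sign and Rag1 and Rag2 encode the recombinase. Each is the 250 bases before the annotated start, 5′ to 3′ on the gene's strand, from RefSeq on GRCm38.p6. They lie at chr19:41029025-41029274 (plus strand) for Dntt, chr2:101649533-101649782 (minus) for Rag1, chr2:101624462-101624711 (plus) for Rag2 and chr8:9977681-9977930 (minus) for Lig4. Capitals mark the one match to the E box letters searched.
Dntt: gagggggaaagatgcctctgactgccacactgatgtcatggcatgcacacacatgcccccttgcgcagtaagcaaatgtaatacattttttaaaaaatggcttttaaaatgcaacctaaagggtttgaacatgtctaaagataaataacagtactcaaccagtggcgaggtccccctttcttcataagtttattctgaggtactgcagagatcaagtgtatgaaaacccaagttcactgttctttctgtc
Rag1: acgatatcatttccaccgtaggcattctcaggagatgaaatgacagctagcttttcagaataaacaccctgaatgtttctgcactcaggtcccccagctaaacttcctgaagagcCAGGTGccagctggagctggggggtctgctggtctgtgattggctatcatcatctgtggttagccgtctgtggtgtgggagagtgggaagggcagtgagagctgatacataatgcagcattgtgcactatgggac
Rag2: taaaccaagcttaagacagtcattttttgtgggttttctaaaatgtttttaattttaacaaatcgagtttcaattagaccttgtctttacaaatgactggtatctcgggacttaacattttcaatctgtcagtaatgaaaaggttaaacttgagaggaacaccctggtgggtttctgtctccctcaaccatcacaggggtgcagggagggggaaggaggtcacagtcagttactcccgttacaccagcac
Lig4: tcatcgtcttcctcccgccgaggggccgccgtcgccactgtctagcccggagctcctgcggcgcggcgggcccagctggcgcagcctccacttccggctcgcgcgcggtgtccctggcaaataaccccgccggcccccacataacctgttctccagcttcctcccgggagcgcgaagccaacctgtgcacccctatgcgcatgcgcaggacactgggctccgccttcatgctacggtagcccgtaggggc

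RefSeq windows of 300 bases, from 250 before to 50 after a start, were matched by symbol for 9 of the 10 genes, with 10 windows because Lig4 has a pair. Prkdc was not matched. The EBF consensus, CCCNNGGG with T before it and A after it, searched on both strands, was in 0 of the 10 windows and in 0.904% of 32851 windows of all genes. The inner CCCNNGGG alone, which every match to the consensus also holds, was in 1 of the 10, that of Polm, and in 13.7% of all. The E box CAGGTG, a site type bound by E proteins, was in 1 of the 10, at 135 bases before the Rag1 start, and in 20.2% of all. These are matches of letters in a short window, and the letters of a distal enhancer were not searched. The base composition differed widely: 41.6% of the Dntt bases shown were G or C, 41.2% of those of Rag2, 50.8% of those of Rag1 and 70% of those of Lig4.

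Rag1 and Rag2 had higher means in the EBF arrays, by a similar size, and neither passed the test. Rag1, which encodes the DNA-cutting subunit of the recombinase, read 4399.9, 4348 and 5312 in EBF 1 to 3 and 4117, 3431 and 3825 in control 1 to 3. The groups were separate, with EBF 3 highest and the other 2 EBF arrays just above control 1. The means were 4686 ± 542 and 3791 ± 344 (SD, n = 3 each), a log2 difference of 0.30 ± 0.10 (SE; 95% interval 0.06 to 0.54, not adjusted; limma adjusted p = 0.191, blocked 0.0724).

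Rag2, which encodes the partner subunit that RAG1 needs for cutting, read 1300.1, 1100.5 and 1383 in EBF 1 to 3 and 1055, 947 and 1148 in control 1 to 3. The groups overlapped, since EBF 2 lay below control 3. The means were 1261 ± 145 and 1049.8 ± 101 (SD, n = 3 each; log2 0.26 ± 0.11, interval 0.01 to 0.50, adjusted p = 0.247, blocked 0.0690). Between arrays of the same number, Rag2 differed by 0.29, 0.21 and 0.26 on the log2 scale for numbers 1 to 3, and Rag1 by 0.10, 0.34 and 0.47. For both genes the log2 difference was above 0 in all 14 alternative analyses. Adjusted p-values there ran from 0.0724 to 0.408 for Rag1 and from 0.0690 to 0.527 for Rag2. Without EBF 3 and control 2, the arrays farthest from their groups in earlier work on these data, the differences shrank to 0.14 and 0.12.

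Dntt fell at 2 of its 3 probe sets. TdT adds the N nucleotides that diversify the junctions, and it is made in pro-B cells and thymocytes. The probe set 1449757_x_at read 1003, 1199 and 1109.97 in EBF 1 to 3 and 2013, 1867 and 2237 in control 1 to 3. The highest EBF array was thus well below the lowest control. The means were 1104 ± 97.9 and 2039 ± 186 (SD, n = 3 each), a log2 difference of -0.87 ± 0.10 (SE; interval -1.09 to -0.65; limma adjusted p = 0.0075, blocked 0.00122). This probe set kept the call in all 14 alternatives, with adjusted p-values of 0.00122 to 0.0466 and log2 differences of -0.93 to -0.80. Its suffix, x, marks Affymetrix probe sets in which some probes also match other sequences.

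The brightest Dntt probe set, 1450545_a_at, gave the same direction. It read 1518, 1609 and 1514 in EBF 1 to 3 and 2570.2, 2199 and 2879 in control 1 to 3, a 1.63-fold decrease with separate groups (log2 -0.70 ± 0.10, interval -0.93 to -0.47, adjusted p = 0.0226, blocked 0.00479). The EBF arrays lay close together and the controls were spread, with control 3 highest and control 2 lowest. It passed in 10 of the 14 alternatives and missed the threshold without EBF 1 (adjusted p = 0.0992), EBF 2 (0.101), control 1 (0.106) or control 3 (0.0583), all in the same direction. Over the alternatives its adjusted p ran from 0.00479 to 0.106 and its log2 difference from -0.80 to -0.61.

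The third Dntt probe set, 1420166_at, showed no such decrease. It read 565, 586 and 590.25 in EBF 1 to 3 and 576, 612 and 594 in control 1 to 3, so the groups overlapped (580.4 ± 13.4 and 594 ± 18.1, SD, n = 3 each). Its log2 difference was -0.03 ± 0.07 (interval -0.19 to 0.12, adjusted p = 0.825, blocked 0.826). The interval does not reach the decrease of either other Dntt probe set. All 3 were above 323, the 95th percentile of the 27 control probe sets for Bacillus transcripts, which mouse cells lack and which served as a measure of background. Which part of Dntt each probe set covers is not known here.

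**Figure D2:**
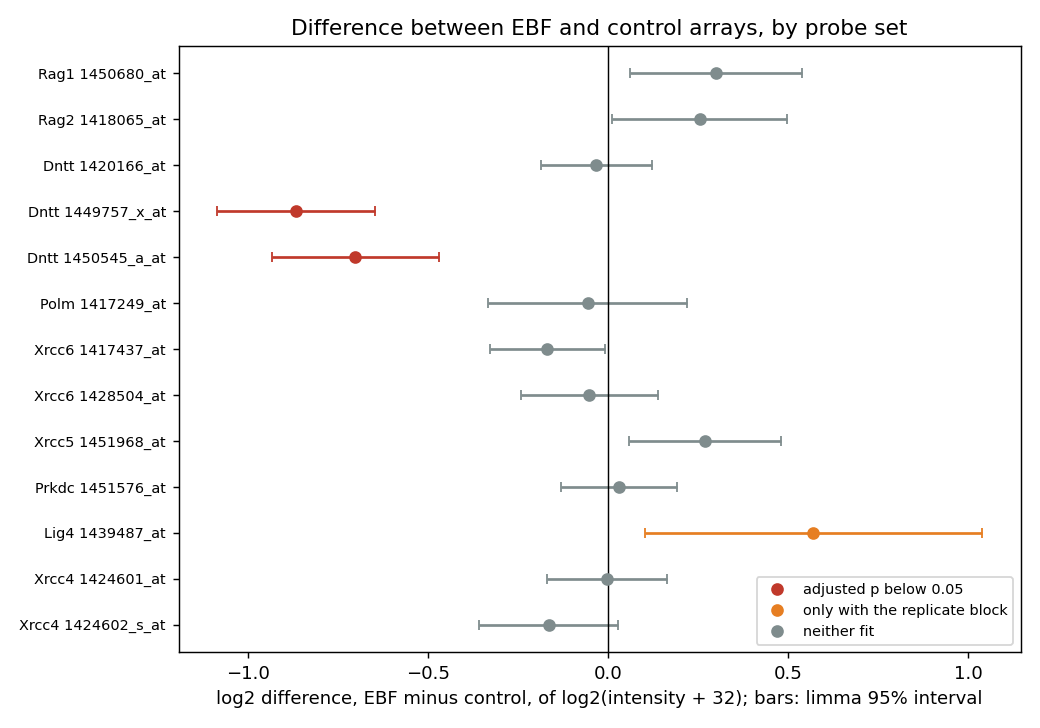
Log2 difference, EBF minus control, of each of the 13 probe sets with its 95% interval from limma (not adjusted for the number of tests). Red points passed after adjustment (1449757_x_at and 1450545_a_at of Dntt) and the orange point (Lig4) passed only with the replicate block. Grey points, among them 1420166_at of Dntt, passed in neither fit.

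To set the change of Dntt against that of each other member, the log2 difference between the brightest probe sets was taken within each array. All 8 pairs had separate groups, always with Dntt relatively lower in EBF arrays. Relative to Rag1, Dntt was at -1.52, -1.42 and -1.79 in EBF 1 to 3 and at -0.67, -0.63 and -0.41 in control 1 to 3, a shift of -1.0 ± 0.14 (SE, n = 3 each). The shift was -1.27 ± 0.29 relative to Lig4, -0.97 ± 0.09 relative to Xrcc5, -0.96 ± 0.13 relative to Rag2 and -0.53 ± 0.12, the smallest, relative to Xrcc6. Each exact two-sided permutation test gave p = 0.1, also after adjustment over the 8 pairs, which is the smallest value that 3 arrays against 3 allow, so this design cannot reach the threshold of 0.05. The values are therefore a description. They all rest on 1 Dntt probe set, 1450545_a_at, whose own groups were already separate, and 1420166_at was not used. The 8 pairs are thus not 8 separate results. Against members with little difference, separation follows largely from Dntt itself. The sizes relative to Lig4 and Polm are uncertain, since Lig4 lay below the Bacillus level in control 1 and control 2 and Polm on all arrays.

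Polm encodes polymerase mu, a relative of TdT that fills gaps during end joining. It read 268, 217 and 288 in EBF 1 to 3 and 228, 291 and 288 in control 1 to 3, all below the Bacillus level of 323. The groups overlapped throughout (258 ± 36.5 and 269 ± 35.6, SD, n = 3 each; log2 -0.06 ± 0.12, interval -0.33 to 0.22, adjusted p = 0.833, blocked 0.790).

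The genes of the Ku proteins, which bind broken ends as a pair, had differences of opposite sign, and neither passed. Xrcc6, the Ku70 gene, read 4828, 5136 and 4684 in EBF 1 to 3 and 5431, 5567 and 5458 in control 1 to 3 at 1417437_at. The groups were separate, with EBF lower (4883 ± 230.5 and 5485 ± 72.0, SD, n = 3 each; log2 -0.17 ± 0.07, interval -0.33 to -0.01, adjusted p = 0.246, blocked 0.196). Its other probe set, 1428504_at, lay between 211 and 252 on all arrays, below the Bacillus level, with overlapping groups (log2 -0.05 ± 0.08, adjusted p = 0.773).

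Xrcc5, the Ku80 gene, read 1189.9, 1201 and 1206 in EBF 1 to 3 and 1107, 872 and 1004 in control 1 to 3. The 3 EBF arrays nearly coincided above spread controls, with control 2 lowest. The means were 1199 ± 8.45 and 994 ± 118 (SD, n = 3 each; log2 0.27 ± 0.09, interval 0.06 to 0.48, adjusted p = 0.189, blocked 0.0915). It was above 0 and missed the threshold in all 14 alternatives (adjusted p 0.0915 to 0.424). Prkdc encodes the DNA-dependent protein kinase that Ku recruits. It read 1031, 1022 and 1053 in EBF 1 to 3 and 1017, 959 and 1061 in control 1 to 3, with overlapping groups (log2 0.03 ± 0.07, interval -0.13 to 0.19, adjusted p = 0.835).

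Lig4, the ligase that seals the joined ends, had a higher mean in EBF arrays, with a call that depended on the fit. It read 424, 399 and 696 in EBF 1 to 3 and 267, 308 and 396 in control 1 to 3. The number 3 array was the highest in both groups, and EBF 2 was only just above control 3, although the groups were separate. Control 1 and control 2 lay below the Bacillus level of 323 and the control mean was at it, so the size of the difference is uncertain. The means were 506 ± 165 and 324 ± 66.0 (SD, n = 3 each), a log2 difference of 0.57 ± 0.21 (SE; interval 0.10 to 1.04; limma adjusted p = 0.200). Between arrays of the same number the difference was 0.61, 0.34 and 0.76, and with the block Lig4 was called higher (SE 0.09, adjusted p = 0.00943). In the 13 other alternatives it was not called, with adjusted p-values of up to 0.379, and without EBF 3 its log2 difference was 0.33 (adjusted p = 0.161).

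Xrcc4 encodes the protein that stabilises DNA ligase IV, the product of Lig4. At 1424601_at it read 589.7, 548 and 543 in EBF 1 to 3 and 577, 575 and 532 in control 1 to 3, and the groups overlapped (log2 0.00 ± 0.07, interval -0.17 to 0.16, adjusted p = 0.988). At 1424602_s_at it read 307, 349 and 373 in EBF 1 to 3 and 402, 376 and 383 in control 1 to 3. These groups were separate with EBF lower, by a margin of a few units between EBF 3 and control 2 (log2 -0.16 ± 0.08, interval -0.36 to 0.03, adjusted p = 0.329, blocked 0.268). Lig4 and Xrcc4 were thus measured with differences of opposite sign or near 0, and the difference between them was not tested.

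**Figure D3:**
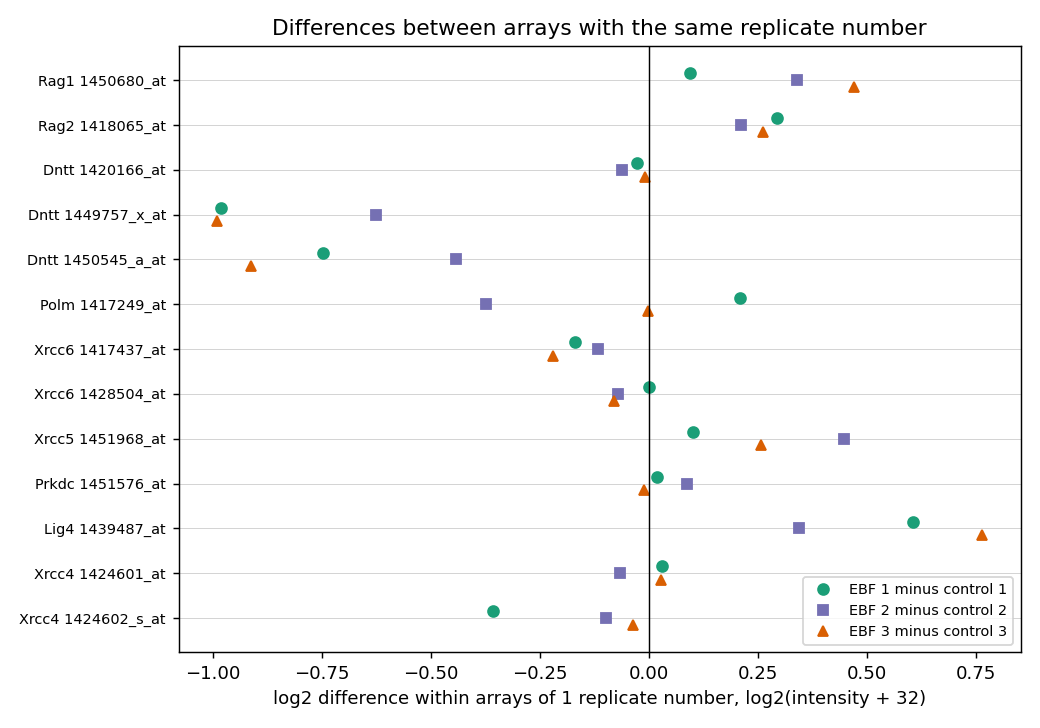
Log2 difference between the EBF and the control array of the same replicate number, for each of the 13 probe sets. All 3 numbers lie on the lower side for the Dntt probe sets 1449757_x_at (-0.98, -0.63 and -0.99) and 1450545_a_at (-0.75, -0.44 and -0.91), and on the higher side for Rag1, Rag2, Xrcc5 and Lig4. They also lie on the lower side, by less, for the remaining Dntt probe set, both of Xrcc6 and 1424602_s_at of Xrcc4.

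The other genes of recombination and repair were read from 6 lists with 65 entries, each at its brightest probe set, and 59 were measured. By limma 0 of 59 passed in either direction, against 0.418% of all genes higher and 0.671% lower, and 23 had an unadjusted p below 0.05 (19 higher, 4 lower), against 19.7% of all genes. With the replicate block 8 rose and 2 fell, where 4.82% of all genes rose and 2.52% fell. The median log2 difference was 0.13 over the 59 and 0.03 over all genes, and 44 of the 59 were above 0, against 58.0% of all genes. EBF arrays were separately higher for 22 and separately lower for 3, against 17.2% and 8.06% of all genes.

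Of 9 end joining partners, with a median of 0.07, 0 passed in the unblocked fit, 4 had an unadjusted p below 0.05 and 1 passed with the block. That was Tdp2, which removes trapped topoisomerase from DNA ends, at 2541, 2663 and 2538 in EBF 1 to 3 and 2123, 1896 and 2112 in control 1 to 3 (log2 0.33 ± 0.08, adjusted p = 0.0951, blocked 0.0402). The groups were well separate. Of 10 break response genes, with a median of 0.16, 0 passed unblocked, 3 had an unadjusted p below 0.05 and Paxip1, a partner of 53BP1 at breaks, passed with the block. It read 2499, 2691 and 2541 in EBF 1 to 3 and 2111, 2062 and 2042 in control 1 to 3 (log2 0.31 ± 0.07, adjusted p = 0.0906, blocked 0.0405). Every EBF array was above every control.

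All 6 alternative end joining genes measured were above 0, with a median of 0.25, and 0 passed unblocked, 3 having an unadjusted p below 0.05. Lig1, the ligase of DNA replication, read 5438, 5324 and 5724 in EBF 1 to 3 and 4412, 4187 and 4754 in control 1 to 3 (log2 0.30 ± 0.08, adjusted p = 0.120, blocked 0.0406). Polq, the polymerase theta gene, was the other to pass with the block (0.33 ± 0.13, adjusted p = 0.220, blocked 0.0441), but it lay at 87.3 to 161 on all arrays, below the Bacillus level, and its difference was 0.21 without EBF 1. Of 10 homologous recombination genes, with a median of 0.17, 9 were above 0, 0 passed unblocked and 4 had an unadjusted p below 0.05. Exo1, a nuclease that resects ends, passed with the block, at 1750.1, 1543 and 1735 in EBF 1 to 3 and 1352, 924 and 1373 in control 1 to 3 (log2 0.47 ± 0.15, adjusted p = 0.164, blocked 0.0194). Its lowest value, in control 2, lay far from the other controls, and without control 2 the log2 difference was 0.29 (adjusted p = 0.292).

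Brca2, Lig3 and Poll read high in EBF 1 and EBF 2 but not in EBF 3. Without EBF 3, 8 of the 59 genes passed as higher, against 7.11% of all genes, and 1 as lower, against 2.89%. The 8 were Tdp2, Paxip1, Polq, Ets1, Nhej1, Poll, Lig3 and Brca2, and the 1 was Gfi1b, all chosen by their values. Nhej1, like Polq, had a mean below the Bacillus level. Brca2, a gene of homologous recombination, read 5834 and 5496 in EBF 1 and EBF 2 but 3358 in EBF 3, and 3611, 3819.5 and 3369 in control 1 to 3 (log2 0.40 ± 0.19, adjusted p = 0.29, and 0.65 without EBF 3, adjusted p = 0.00844). Lig3, a ligase of alternative end joining, read 4260.3, 4025 and 2873 in EBF 1 to 3 and 2765, 3192 and 2804 in control 1 to 3. EBF 3 thus lay just below all controls for Brca2 and among the controls for Lig3. Poll, the polymerase lambda gene and a relative of Dntt, had 1848, 1738 and 1301 in EBF 1 to 3 and 1375, 1239.99 and 1229.8 in control 1 to 3. Both Dntt probe sets that fell did so without EBF 3 as well (adjusted p = 0.0075 and 0.0154).

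Among 7 RAG cofactors and genes of RAG2 protein turnover, with a median of 0.13, 0 passed in either fit and 3 had an unadjusted p below 0.05. The smallest p-values were those of Hmgb2, a DNA-bending cofactor of RAG (log2 0.24 ± 0.07, adjusted p = 0.145, blocked 0.0883), and Cdkn1b, the cell cycle inhibitor p27 (-0.27 ± 0.09, adjusted p = 0.167, blocked 0.0680). Of 17 transcription factors described at the Rag locus or at Dntt, with a median of 0.03, 0 passed unblocked while 6 had one below 0.05 without adjustment. The blocked fit called 3 higher and 2 lower. Ets1, a factor of lymphoid genes, had the largest difference of the 3, from 3644, 2798 and 3484 in control 1 to 3 to 4654, 4512 and 4865 in EBF 1 to 3 (log2 0.50 ± 0.10, adjusted p = 0.0788, blocked 0.0115), with separate groups.

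Foxo1, an activator of Rag transcription, read 1783, 1837 and 2670.5 in EBF 1 to 3 and 1580.05, 1389.7 and 1904 in control 1 to 3 (log2 0.35 ± 0.17, adjusted p = 0.301, blocked 0.0401). Its difference was 0.16 without EBF 3 and 0.06 without EBF 3 and control 2. Gfi1b, a repressor of Rag, read 648, 661 and 1008 in EBF 1 to 3 and 937, 965 and 1383 in control 1 to 3 (-0.49 ± 0.19, adjusted p = 0.228, blocked 0.00699), with -0.32 without control 3 and -0.77 without EBF 3 and control 2. Both overlapped between groups and both were highest in the number 3 array of each group, as Lig4 was. Bach2 (0.31 ± 0.11, adjusted p = 0.183, blocked 0.0390) and Runx1 (-0.34 ± 0.13, adjusted p = 0.234, blocked 0.0323) were the remaining ones to pass with the block. Bach2 was at 0.16 without EBF 3 and control 2, and Runx1 at -0.22 without EBF 3.

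**Figure D4:**
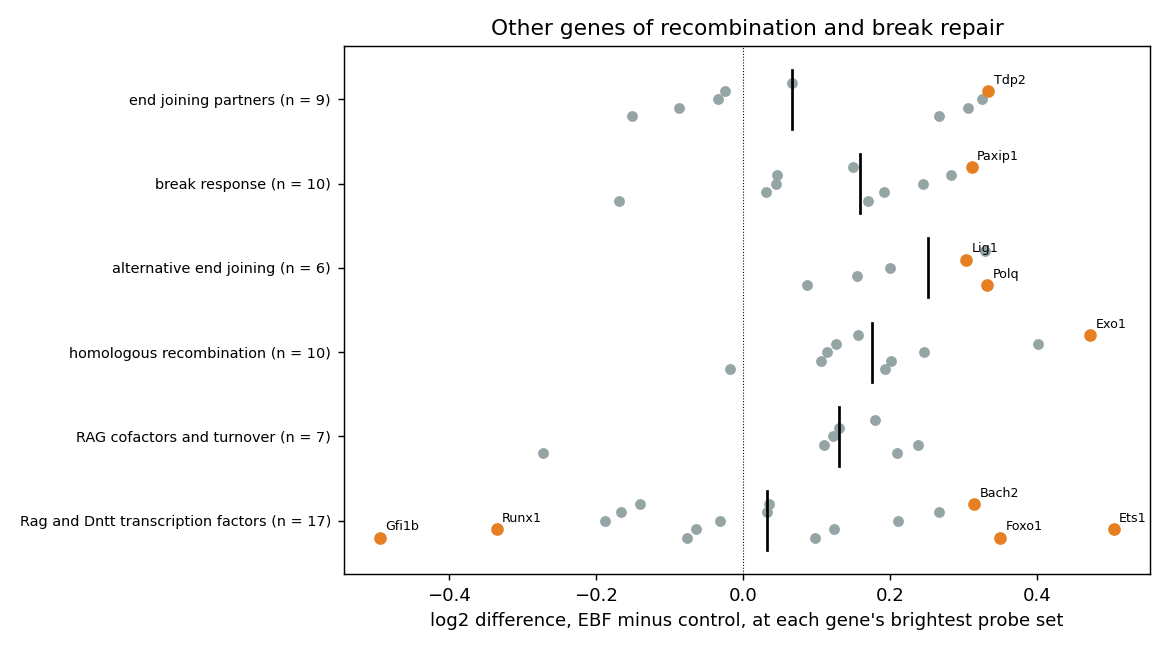
Log2 difference, EBF minus control, of 59 genes in 6 lists (1 point a gene, vertical offsets for legibility only), with a black line at each list's median. Orange points passed with the replicate block and are named, grey points did not, and 0 genes passed without the block.

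The arrays had median intensities of 424 to 451. All 13 pro-B markers looked for (among them Cd79a, Cd79b, Igll1, Vpreb1 and Il7r, and the members Rag1, Rag2 and Dntt) were above the Bacillus level of 323. Their summed intensity was 75870.3 to 78517 in EBF arrays and 66686 to 69682 in controls, and by limma 1 of them rose (Vpreb3) and 2 fell (Kit and Dntt). With the block 4 rose, Igll1, Cd79b and Il7r being added, and the same 2 fell. Cd79a, Cd93 and Spn also had lower means in EBF arrays (log2 -0.27, -0.18 and -0.29), and the remaining markers had higher ones. A linear sum gives most weight to bright markers such as Igll1 (means 13668 in EBF arrays and 9243 in controls). Of 10 ST2 stromal markers 9 were above that level, with sums of 14215 to 20650.2 in EBF arrays and 15589.9 to 26604 in controls, and 0 changed in either fit. T cell markers were above it for 5 of 8 measured, NK markers for 3 of 5, myeloid markers for 5 of 7 and erythroid markers for 2 of 3. Of all 45037 probe sets 27112 had means above it, and each marker was read at its brightest probe set. These counts near the general share therefore do not show that RNA of those cell types was present. In these lists 0 T cell or NK markers changed in either fit, 1 myeloid marker fell in both (the lysozyme gene Lyz2), and 1 erythroid marker, Epor, was called higher with the block alone (log2 0.46, blocked adjusted p = 0.0151). Summed erythroid intensity was 2554 to 2694.5 in EBF arrays and 2278 to 2359.6 in controls. The higher sum came from Epor alone, with means of 1249 in EBF arrays and 899 in controls. Klf1 (log2 -0.05) and Hba-a1 (-0.06, below the Bacillus level) went the other way. The part of other cells in the differences above was not tested, and fewer cells of a type cannot be told apart from less RNA per cell in such bulk samples.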

How the data were processed

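The authors deposited 1 intensity per probe set and array on a linear scale; how they were background-corrected and normalized is not stated in the labels. The design text names a rat array, but the platform table and the organism label are for mouse. No further scaling was applied. Affymetrix controls (64) were left out. EBF minus control was fitted in limma 3.58.1 (R 4.3.3; lmFit, eBayes, two-sided) on log2(intensity + 32) with group as the only term, and p-values were adjusted by Benjamini-Hochberg over 45037 probe sets, threshold 0.05. The fit was tested on simulated data. Same-numbered arrays deviated together from their group means, with correlations of 0.318, 0.255 and 0.503 over the 22518 brighter probe sets. The labels give numbers alone and do not say what they mark. The replicate block, run as an alternative, pairs the arrays by number. The main fit and the permutation tests leave this likeness out. Members and lists were chosen with earlier results of these data known. All members were named, and of each list every gene that passed in either fit, or else the 2 with the smallest p. The 8 pairs of Dntt were planned as 9 before Dclre1c was found unmeasured. The number of arrays limits the precision.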

Additional observations from a re-analysis of the deposited data

How the results depend on the processing

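Alternatives were the replicate block, a lower and a higher pseudocount, median scaling, quantile normalization, a filter on dim probe sets, limma-trend, leaving out each array, and leaving out EBF 3 with control 2. The count of member probe sets called higher was 0 in all of them except with the replicate block, where it was 1 (Lig4). The count called lower was 2 except when an array was left out, where it was 1 to 2. It was 1 without EBF 1, EBF 2, control 1 or control 3. In these fits 0.142%, 0.0955%, 0.111% and 0.322% of all probe sets were lower, against 0.531% with all arrays. It stayed at 2 without control 2, where 0.113% were lower. In the 6 lists, the count of genes higher was 8 with the replicate block, 1 with the higher pseudocount (Paxip1), 3 with limma-trend (Ets1, Parp1 and Hmgb2), 2 without EBF 3 and control 2 (Lig3 and Brca2), and 0 to 8 when 1 array was left out. The count lower was 2 with the block and 0 to 1 when 1 array was left out, the 8 and the 1 both without EBF 3. Of all probe sets, 0.453% were higher with the higher pseudocount, 0.595% with limma-trend and 3.08% without EBF 3 and control 2. With the block 4.88% were higher and 2.4% lower, and without EBF 3 6.76% and 2.76%. The block changed no call of a member other than Lig4. With 155 probe sets higher and 239 lower in all, the block gave 2199 and 1081, and leaving out EBF 3 gave 3045 and 1242. No call of a named gene reversed its direction under these alternatives. Mean intensities below the Bacillus level of 323 (Polm, 1 probe set of Xrcc6, Polq and Nhej1) limit what can be read for those genes, as do single arrays below it for Lig4 (control 1 and control 2) and for 1424602_s_at of Xrcc4 (EBF 1).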
